A study of Mus musculus with 30 samples.

Results

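The genes described here are those of the cyclic AMP (cAMP) pathway that the array measured by name: adenylyl cyclases, the subunits of protein kinase A (PKA), its anchoring proteins, the CREB family of transcription factors, the targets Nr4a1, Nr4a2, Nr4a3 and Ptgs2, and the phosphodiesterases. They were chosen by gene symbol alone. The choice gave 66 of 19085 named genes, on 85 probes: 10 cyclases, 6 PKA subunits, 16 anchoring proteins, 8 CREB factors, 4 targets and 22 phosphodiesterases. Of these, 65 exceeded an intensity of 16 in at least 3 samples. Pde8b did not, and its values lay between 0.617 and 3.17.

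Each of 30 samples of mouse cells was hybridised to a 1-colour whole-genome oligonucleotide array, and the table holds linear intensity. The 7 untreated somatic samples were mouse embryonic fibroblasts (MEF1, WT MEF, MEF2 and MEF3), neonatal fibroblasts (MNF), adult lung fibroblasts (MAF) and adipose-derived stem cells (ADSC). They were compared with 11 chemically induced pluripotent stem cell (CiPSC) lines, 5 embryonic stem cell (ESC) samples (4 of line R1 and 1 of line TT2), 2 lines made with the OSKM factors (OSKM iPSC) and 2 lines titled SKM-FSK, and with treated fibroblasts sampled once each on days 12, 20 and 32. The sources used here name no genotype or strain beyond this. The treatment codes are letters. In the study V, C, 6, T, F and Z stood for valproic acid, CHIR99021, a TGF-beta receptor inhibitor, tranylcypromine, forskolin and DZNep. Day 12 is labelled VC6TF, and days 20 and 32 and the CiPSC control line VC6TF+Z. The other 10 CiPSC codes also hold F, from FC6+Z for CiPS45 and VC6F+Z for CiPS50 to 8 lines whose codes hold further letters that the labels do not spell out. These are VC6TFMP+Z for CiPS34, VC6TFS+Z for MNF CiPS7, VC6TFDBS+Z for CiPS21, VCT6FMDBR+Z for MNF CiPS1, VC6TFDM+Z for MAF CiPS3, and VC6TFMPS+Z for ADSC CiPS2, CiPS WT1 and CiPS WT2. Both SKM-FSK lines are labelled F alone. Whether forskolin was still present when RNA was taken from a finished line is not given. All pluripotent lines were grown on MEF feeders treated with mitomycin C.

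The samples fall into 5 sets that the authors normalized separately, so levels are compared within a set. Set 1 holds MEF1, 4 CiPSC lines, OSKM iPS1 and ESC1, and set 2 holds MNF, MAF, ADSC, 4 CiPSC lines, OSKM iPS2 and ESC2. Set 3 holds WT MEF, CiPS WT1, CiPS WT2 and ESC3. Set 4 holds MEF2, SKM-FSK1, SKM-FSK2 and ESC4, and set 5 holds MEF3, the 3 treatment days, the CiPSC control line and ESC5. Every column is stated to be 2 or 3 replicates and appears to be their average, so p-values measure the spread between columns only, and the number of arrays limits the precision.

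Set 5 stood apart. In it 18.5 to 18.7% of values lay under 16, against at most 0.847% elsewhere. Over 11454 probes measured everywhere, Spearman's coefficient of MEF3 with the other 3 MEF samples was 0.569 to 0.697, while those 3 gave 0.919 to 0.936 with each other. ESC5 gave 0.785 to 0.832 with the other ESC samples, against 0.896 to 0.941 among those. Results that rest on MEF3 are therefore also given without it. The labels were borne out by pluripotency and fibroblast markers. Summed pluripotency markers in every pluripotent line were at least 2008% of the somatic level of their set. Summed fibroblast markers were 0.471 to 12.2% of it in CiPSC, highest in CiPS WT1 and CiPS WT2, 0.340 to 5.48% in ESC and 0.289 to 0.321% in SKM-FSK iPSC. Summed smooth muscle markers ranged more widely in CiPSC, from 1.32 to 121% of the somatic level, with only 1 of 5 measured in set 1. They were 76.5 and 65.7% in CiPS WT1 and CiPS WT2, against 14.3% in ESC3. In such bulk samples RNA of feeder fibroblasts and of unconverted fibroblasts cannot be told apart. Neither can fewer cells of a type and less RNA per cell.

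As background, hormones acting on Gs-coupled receptors activate adenylyl cyclases, which make cAMP from ATP, and phosphodiesterases break it down. Binding of cAMP to the regulatory subunits of PKA frees the catalytic subunits, which A-kinase anchoring proteins hold near their substrates. In the nucleus, PKA phosphorylates CREB, which binds the cAMP response element in promoters of rapidly induced genes such as the Nr4a receptors. Forskolin activates membrane-bound cyclases directly, and in chemical reprogramming it is used in place of an introduced Oct4 gene.

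In the comparison of CiPSC with somatic cells, members fell more often than they rose. A gene was called at a Benjamini-Hochberg adjusted p under 0.05 in limma and a change of at least 2-fold. Of 55 members tested, 4 were called higher and 17 lower, where 14.9% of all 16497 genes tested were called higher and 13.3% lower. The share of members called lower was above that of all genes, and the share called higher below it. The median log2 difference of the members was -0.35, against -0.11 for all genes tested. The ESC gave 5 members higher and 18 lower of 55 against the same somatic samples (15.3% and 14.4% of all genes). Without MEF3 the counts were 4 and 15 of 47 for CiPSC, where all genes gave 15.7% and 14.7%, and 4 and 16 of 55 for ESC, where all genes gave 15.3% and 15%. Between CiPSC and ESC, 0 of 55 members were called in either direction (0.0303% of all genes higher, 0% lower). An unadjusted p under 0.05 was found for 2 members (3.64%), against 4.99% of all genes. The remaining 11 members had no such test: Pde8b, and Adcy5, Adcy7, Adcy8, Akap4, Akap14, Creb1, Nr4a3, Pde2a, Pde3a and Pde7b, which were measured in too few sets.

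**Figure D1:**
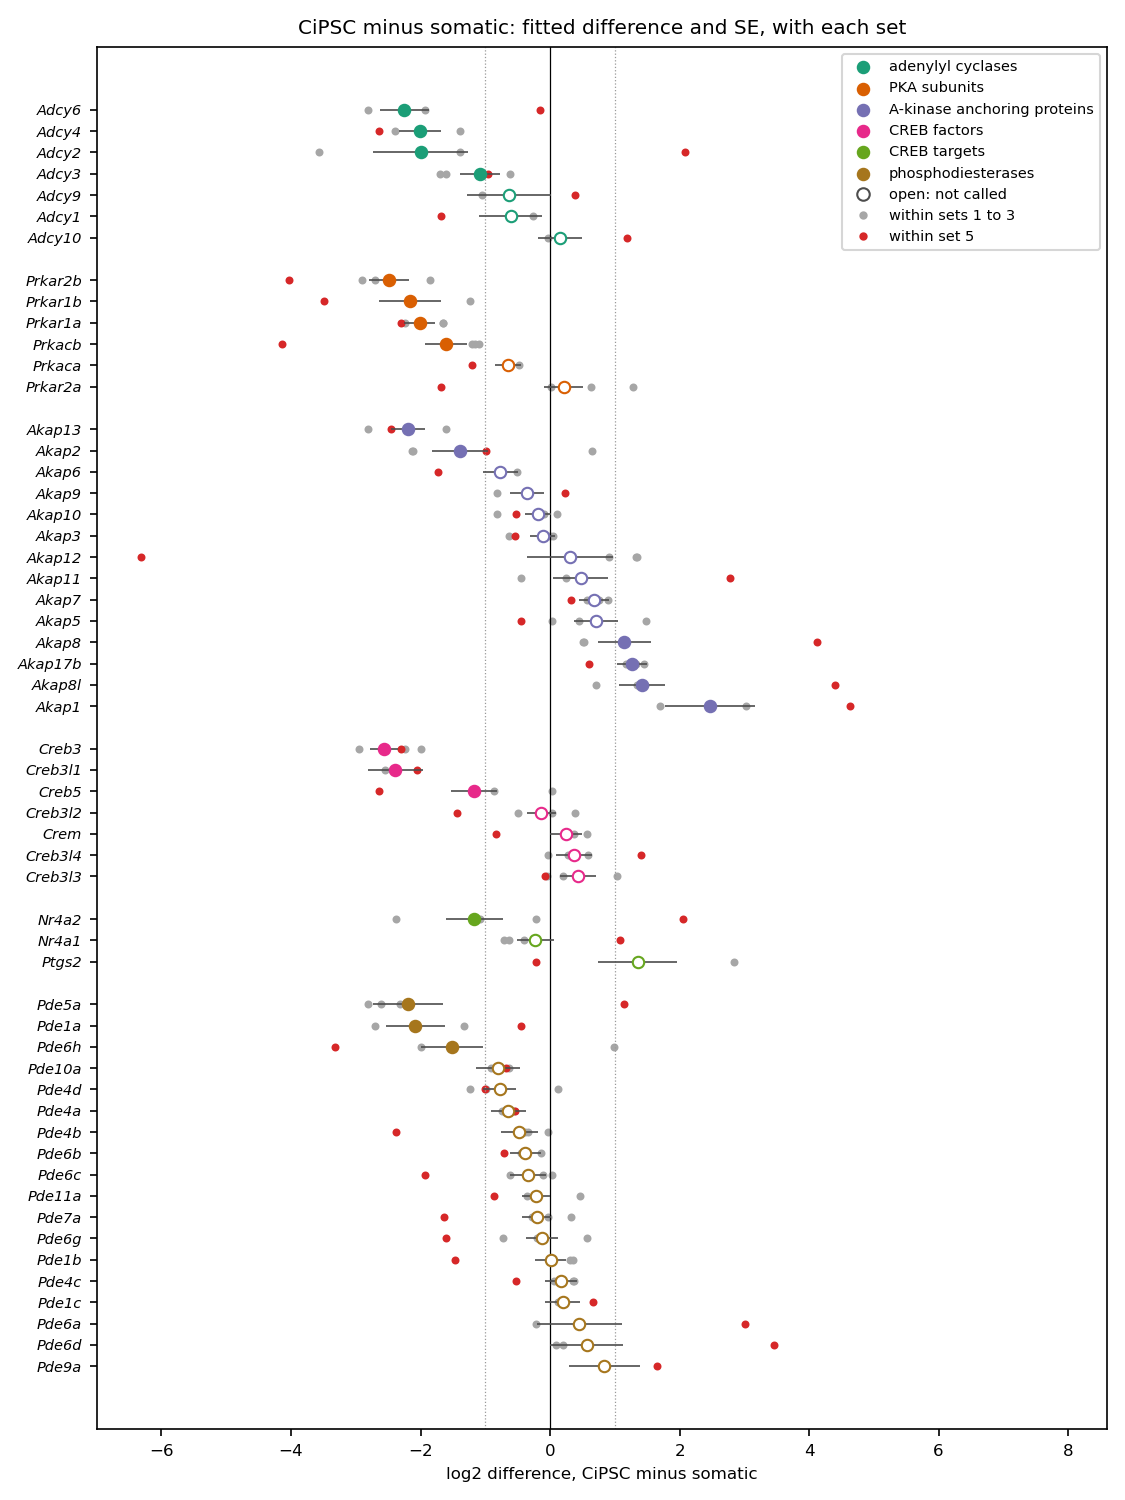
Fitted log2 difference of CiPSC minus somatic samples for the 55 members tested (large points, bars 1 SE; filled where called), grouped by family, with the difference within sets 1 to 3 in grey and within set 5 in red. Dotted lines mark 2-fold. PKA subunits and cyclases lie mostly to the left, 4 anchoring proteins are called to the right, and set 5 departs from the other sets for Akap12, Pde5a, Adcy2 and Nr4a2.

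Of 6 PKA subunits, 4 were called lower in CiPSC than in somatic cells and 0 higher (13.3% and 14.9% of all genes). Prkar2b encodes the type II beta regulatory subunit. Its intensity was 6955 in MEF1 against 804 to 1047 in the 4 CiPSC lines of set 1 and 735 in ESC1. It was 3144 to 10900 in the 3 somatic samples of set 2 against 1085 to 1883 in the CiPSC lines, and 1965 in WT MEF against 461 and 197 in CiPS WT1 and CiPS WT2. In set 5 MEF3 stood at 14689, day 12 at 4180, day 20 at 4272, day 32 at 3666, the CiPSC control line at 899 and ESC5 at 781. No CiPSC line reached a somatic sample of its set, and the fitted difference was -2.49 on the log2 scale (SE 0.31, adjusted p = 9e-07).

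Prkar1a, the widely expressed type I alpha regulatory subunit, followed the same order. It measured 5379 in MEF1 against 1439 to 2145 in CiPSC, 7207 to 9415 in the somatic samples of set 2 against 1216 to 2071, 3080 in WT MEF against 1092 and 871, and 2894 in MEF3 against 585 in the CiPSC control line. The groups did not overlap in any of the 4 sets, and the fitted difference was -2.01 (SE 0.24, adjusted p = 5.4e-07). The drop in set 5 was present on day 12, when Prkar1a stood at 672.

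Prkar1b, the type I beta subunit, was lower, at -2.16 (SE 0.48, adjusted p = 0.00333) on values from sets 1, 4 and 5. It stayed high during treatment, at 3031 in MEF3 and 2843, 2255 and 1367 on days 12, 20 and 32, before 270 in the CiPSC control line and 584 in ESC5. Prkacb, a catalytic subunit, fell by 1.60 (SE 0.32, adjusted p = 0.000352). Within sets 1 to 3 its difference lay between -1.21 and -1.10, whereas in set 5 it was -4.15, from 1070 in MEF3 to 60.4 in the CiPSC control line, with 2461 on day 12. The CiPSC call of Prkacb held without MEF3 and without set 5. Its lower call in ESC came under 2-fold without set 5 (adjusted p = 0.00307). The other catalytic subunit, Prkaca, was not called. It lay at 11053 to 18800 in the somatic samples of sets 1, 2, 3 and 5 and at 6756 to 12755 in the CiPSC lines, which is -0.65 (SE 0.20, adjusted p = 0.011) and under 2-fold. Prkar2a, the type II alpha subunit, differed by 0.21 (SE 0.31, adjusted p = 0.607): within sets 1, 2 and 3 it was 1.28, 0.02 and 0.63 and within set 5, where MEF3 stood at 4206, it was -1.68.

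**Figure D2:**
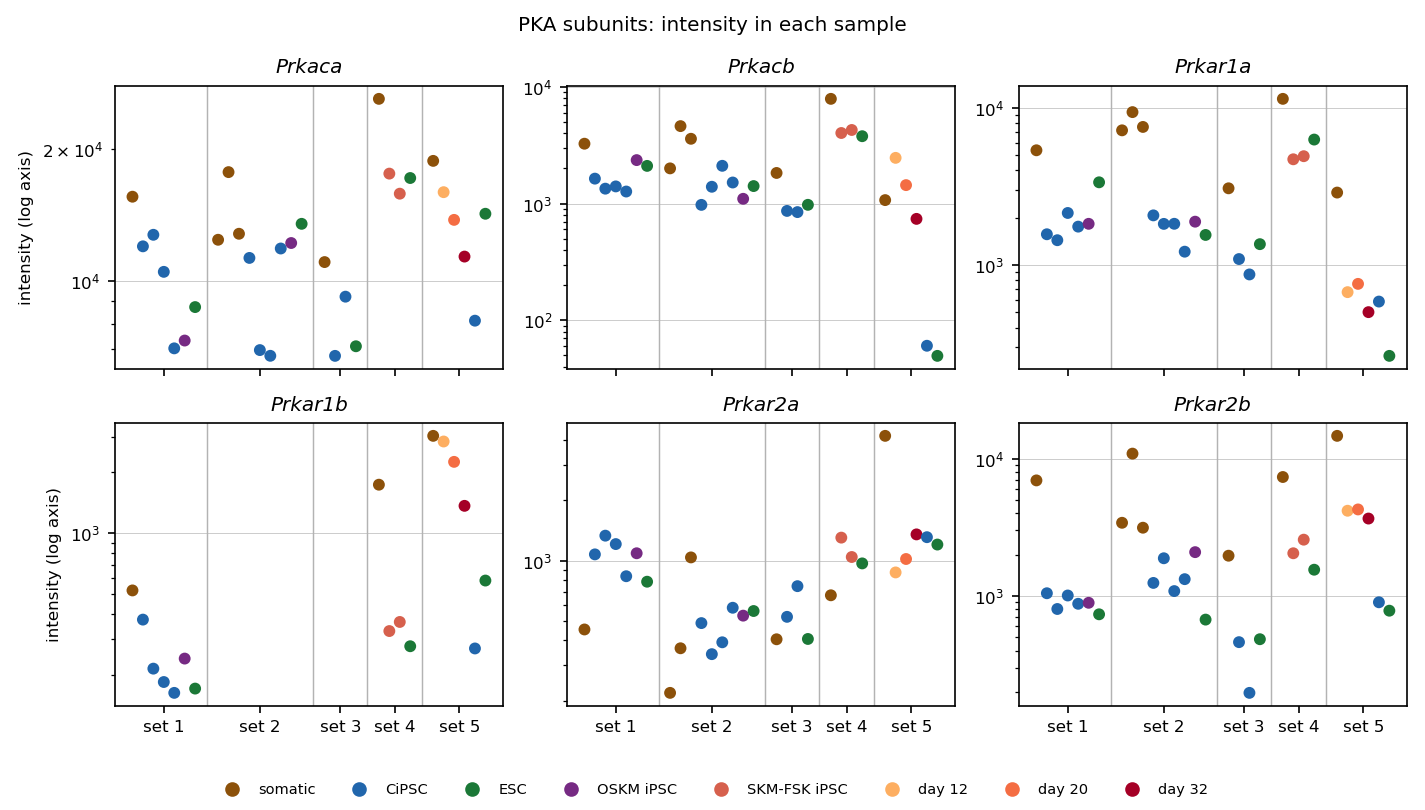
Intensity (log axis) of the 6 PKA subunits in each sample, ordered by set and coloured by group; each point is 1 column of the table. For Prkar2b and Prkar1a the somatic points lie above all CiPSC points of their set, and Prkaca differs by less than 2-fold in the fit.

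Among the cyclases, 4 of 7 tested were called lower in CiPSC and 0 higher (13.3% and 14.9% of all genes). Adcy4, one of the cyclases that G-protein beta-gamma subunits stimulate, was 405 in MEF1 against 62.1 to 91.1 in the CiPSC lines of its set. It was 166 to 1514 in the somatic samples of set 2 against 72.1 to 111, 187 in WT MEF against 72.0 and 69.8, and 508 in MEF3 against 81.3. The 2 groups did not overlap in any set, and the fitted difference was -2.01 (SE 0.32, adjusted p = 3.01e-05). Adcy6, a cyclase inhibited by calcium, was 1198 to 2096 in the somatic samples of set 2 and 122 to 339 in the CiPSC lines, and 1315 in WT MEF against 322 and 371. It differed by -2.25 (SE 0.37, adjusted p = 0.000126), but within set 5 MEF3 and the CiPSC control line were close, at 2485 and 2221. Without set 2 its adjusted p was 0.0558.

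The other 2 cyclases called depended on single samples. Adcy3, stimulated by calmodulin and known from olfactory neurons, had a lower CiPSC mean in all 4 sets (-1.08, SE 0.31, adjusted p = 0.00775). In set 2 the groups overlapped, with 1873 to 10527 in somatic samples and 1681 to 5494 in CiPSC. Without MEF1, MNF, WT MEF or CiPS45 its difference came to between -0.98 and -0.93, under 2-fold. Adcy2 was -2.0 (SE 0.73, adjusted p = 0.0389). Its somatic values ran from 69.1 in MEF3 to 6711 in MAF, with 904 in MNF, 396 in ADSC and 371 in WT MEF, against 69.8 to 291 in the CiPSC lines. It lost its call when any one of MNF, MAF, WT MEF, CiPS WT2 or the 4 CiPSC lines of set 2 was left out (adjusted p 0.0513 to 0.0926), with differences of -2.14 to -1.18. Without set 2 the difference was -0.07 (adjusted p = 0.943), and with MEF as the only somatic samples 0.0030 (adjusted p = 0.997).

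Of the cyclases not called in CiPSC, Adcy1, a neuronal calmodulin-stimulated cyclase, differed by -0.61 (SE 0.48, adjusted p = 0.333) and Adcy9, the membrane cyclase least sensitive to forskolin, by -0.63 (SE 0.65, adjusted p = 0.458). Adcy1 was called lower in ESC, at -1.61 (SE 0.55, adjusted p = 0.0345). That call was lost without any one of ADSC, MEF2, MEF3, ESC2, ESC4 and ESC5 (adjusted p 0.0571 to 0.103). Adcy9 stood at 915 in ESC5 and at 13.6 to 28.8 in every other sample of set 5. The soluble, bicarbonate-sensitive Adcy10 differed by 0.15 (SE 0.34, adjusted p = 0.740). Adcy5 and Adcy7 were measured only in sets 4 and 5 and Adcy8 only in set 5. Adcy7 was 329 in MEF2 against 52.0 and 57.7 in the SKM-FSK lines and 70.7 in ESC4. Adcy5 was 102 against 61.8, 47.7 and 59.0, and Adcy8 did not exceed 33.5.

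The anchoring proteins went both ways, with 4 of 14 called higher and 2 lower in CiPSC (14.9% and 13.3% of all genes). Akap13 was 10268 in MEF1 against 1194 to 1666 in CiPSC. It was 4081 to 16440 in the somatic samples of set 2 against 1257 to 2356, 4584 in WT MEF against 1508 and 1513, and 11313 in MEF3 against 2061. All somatic samples lay above all CiPSC lines of their set (-2.19, SE 0.26, adjusted p = 5.97e-07). Akap2 was lower, at -1.39 (SE 0.43, adjusted p = 0.0134). In set 3 the order was turned, with 172 in WT MEF against 216 and 335 in CiPS WT1 and CiPS WT2, the 2 CiPSC lines with the most fibroblast marker signal, and its adjusted p was 0.0506 (difference -1.21) without MEF1. Without set 2 it was -0.80 (adjusted p = 0.140).

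Akap1, the anchor of the outer mitochondrial membrane, was higher in CiPSC by 2.47 (SE 0.70, adjusted p = 0.00935). It measured 98.1 in WT MEF against 676 and 950 in CiPS WT1 and CiPS WT2 and 1636 in ESC3, and 59.4 in MEF3 against 1468 and 2430 in the CiPSC control line and ESC5. In set 2 the groups overlapped, with 25.6 to 221 in somatic samples and 53.0 to 1039 in CiPSC. Akap17b was higher in each set, from 498 in MEF1 to 619 to 2548 in CiPSC and from 446 to 558 in set 2 to 1064 to 1402 (1.26, SE 0.23, adjusted p = 0.000135).

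The nuclear anchoring proteins Akap8 and Akap8l were higher by 1.15 (SE 0.41, adjusted p = 0.0365) and 1.42 (SE 0.36, adjusted p = 0.00281). Within set 5 these differences were 4.12 and 4.41, and within sets 1 to 3 they lay between 0.50 and 1.47. Akap8l kept its CiPSC call without MEF3 but came under 2-fold without set 5 (adjusted p = 0.00695). Its higher call in ESC came under 2-fold without MEF3 (adjusted p = 0.0288). Without MEF3, Akap8 differed by 0.63 (adjusted p = 0.0526), and it also lost its call without CiPS45 (1.1, adjusted p = 0.0640), ADSC CiPS2 (1.14, adjusted p = 0.0549) or the CiPSC control line (0.77, adjusted p = 0.121). Akap5, an anchor of the plasma membrane, was called only in ESC, at 1.30 (SE 0.41, adjusted p = 0.0146), which was lost without ESC3 or ESC5 (adjusted p 0.0546 and 0.0570, differences 1.14 and 1.11). Its CiPSC difference was 0.71 (SE 0.34, adjusted p = 0.106). The other 7 anchors tested, Akap12 among them, were not called. They lay between -0.77 (Akap6, adjusted p = 0.0359) and 0.68 (Akap7, adjusted p = 0.0223), both under 2-fold. A second probe for Akap7 gave CiPSC differences of 0.84, 0.87, 1.73 and 2.75 within sets 1, 2, 3 and 5.

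Akap12, a large scaffold of the plasma membrane, gave opposite differences by set. Its CiPSC mean was higher in sets 1, 2 and 3, with 9904 to 21590 against 7588 in MEF1 and 15106 and 13187 against 5564 in WT MEF, and with overlap in set 2 (9912 to 24656 against 3276 to 11523). In set 5 it read 6864 in MEF3, 9560 on day 12, 1326 on day 20, 824 on day 32, 86.6 in the CiPSC control line and 74.2 in ESC5. ESC1 to ESC4 lay at 4789 to 30882. The fitted difference over all sets was 0.31 (SE 0.67, adjusted p = 0.727).

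Of 7 CREB factors tested, 3 were called lower in CiPSC and 0 higher (13.3% and 14.9% of all genes). Creb3, a factor anchored in the membrane of the endoplasmic reticulum, was 2297 in MEF1 against 444 to 576 in CiPSC. It was 2184 to 5080 in the somatic samples of set 2 against 289 to 704, 1464 in WT MEF against 355 and 384, and 2083 in MEF3 against 422. The groups were apart in every set (-2.56, SE 0.21, adjusted p = 2.58e-09). Its relative Creb3l1, a regulator of the secretory pathway and of collagen genes, was 4476 in MNF, 335 in MAF and 1325 in ADSC against 158 to 280, 878 in WT MEF against 144 and 181, and 872 in MEF3 against 210 (-2.39, SE 0.42, adjusted p = 0.00023).

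Creb5 was lower, at -1.17 (SE 0.36, adjusted p = 0.0145), with a difference of 0.03 in set 3 and -2.65 in set 5. Its difference came to between -0.98 and -0.95 without MEF2, MEF3 or the CiPSC control line. Creb1, the CREB of the textbook pathway, was measured in set 5 alone: 12.7 in MEF3, 63.4, 153 and 205 on days 12, 20 and 32, 33.8 in the CiPSC control line and 51.8 in ESC5. Crem, whose short products act as cAMP-inducible repressors, differed by 0.25 (SE 0.24, adjusted p = 0.433) on the probe that stood for the gene. Of its 4 probes, a second one disagreed with it in set 2, with a CiPSC mean -1.79 from the somatic mean where the first was at 0.36. In set 5 every other probe opposed the first, at 0.18, 0.54 and 2.66 against -0.84. In set 3, where the first was not measured, the others gave 0.11, 1.14 and 1.77. The first read 61.7 in MEF3 and 37.6, 22 and 23.4 on days 12, 20 and 32. The others read 8.17, then 17.2, 20.8 and 35.9, 70.04, then 80.8, 54.1 and 91.8, and 9.92, then 40.9, 19.6 and 30.7. The MEF3 values of 8.17 and 9.92 lie under the floor of 16. In set 4 all 4 read higher in both SKM-FSK lines than in MEF2, and ESC4 was likewise above MEF2 on all 4.

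The promoters of the 4 targets and of Creb5 are shown because CREB recognises the sequence marked in them. RefSeq promoter windows (GRCm38.p6, 250 bases before to 50 after a listed start) were matched for 54 members. The first listed window of each gene was used. The palindromic response element TGACGTCA was found in 1 of the 54 (1.85%), Creb5, against 507 of 27025 genes (1.88%). Its 5-letter part TGACG, counted on both strands and including those inside the palindrome, was found in 16 of 54 (29.6%) against 21.0% of all genes. At least 4 copies stood in 3 member promoters, those of Nr4a1, Nr4a2 and Nr4a3, against 68 of all 27025 (0.252%). A match describes letters and is not evidence of binding.

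The 250 bases before the listed start of the 3 Nr4a genes follow, from chr15:101266596-101266845 (plus strand), chr2:57124004-57124253 (minus strand) and chr4:48045055-48045304 (plus strand). The 60 bases before the listed start of Creb5 are chr6:53287243-53287302 (plus strand), and the first 30 bases from the start of Ptgs2 are chr1:150100031-150100060 (plus strand). The stretches of Nr4a1 and Creb5 lie inside the annotated span of their gene, and that of Nr4a3 lies partly inside it. Capitals mark TGACG and its reverse complement CGTCA, which overlap in the palindrome of Creb5.
Nr4a1: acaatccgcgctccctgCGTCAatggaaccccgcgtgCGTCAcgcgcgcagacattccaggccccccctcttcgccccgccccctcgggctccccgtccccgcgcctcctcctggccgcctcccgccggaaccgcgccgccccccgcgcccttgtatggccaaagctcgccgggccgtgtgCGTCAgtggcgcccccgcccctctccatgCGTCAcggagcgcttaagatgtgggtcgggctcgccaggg
Nr4a2: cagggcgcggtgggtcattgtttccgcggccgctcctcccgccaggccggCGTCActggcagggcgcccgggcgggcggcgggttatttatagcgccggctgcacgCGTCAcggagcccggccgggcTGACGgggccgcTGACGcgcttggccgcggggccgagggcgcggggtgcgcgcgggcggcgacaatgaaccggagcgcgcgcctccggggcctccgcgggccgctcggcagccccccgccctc
Nr4a3: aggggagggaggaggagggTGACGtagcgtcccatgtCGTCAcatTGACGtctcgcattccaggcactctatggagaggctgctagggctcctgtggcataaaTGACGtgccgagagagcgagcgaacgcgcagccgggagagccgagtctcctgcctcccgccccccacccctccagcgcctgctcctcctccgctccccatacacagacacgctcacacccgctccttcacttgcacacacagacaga
Creb5: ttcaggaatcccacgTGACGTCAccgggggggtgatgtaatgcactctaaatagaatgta
Ptgs2: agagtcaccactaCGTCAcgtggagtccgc

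The 3 Nr4a genes encode nuclear receptors rapidly induced by cAMP signals. Nr4a1 read 2204 to 3583 in the somatic samples of sets 1 to 3, 1092 to 3003 in CiPSC and 821 to 2630 in ESC, with overlap in set 2. Its difference was -0.23 (SE 0.29, adjusted p = 0.550). In set 5 it read 0.167 in MEF3 and 34.1, 66.5 and 40.8 on days 12, 20 and 32, 33.8 in the CiPSC control line and 39.7 in ESC5. Nr4a3 was measured in sets 4 and 5 only and did not exceed 71.6.

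Nr4a2 was lower in CiPSC by -1.17 (SE 0.44, adjusted p = 0.0378). It read 102 in MEF1 against 45.2 to 55.2, 96.4 in MNF, 494 in MAF and 323 in ADSC against 36.1 to 80.2, and 61.1 in WT MEF against 45.8 and 60.1. In set 5 the order was turned, with 1259 in MEF3 against 7210, 6571 and 3912 on days 12, 20 and 32 and 5208 in the CiPSC control line. A second probe for the same gene disagreed there, at 400 in MEF3, 1266, 757 and 383 on the 3 days and 84.7 in the CiPSC control line. The call was lost when any one of MEF1, MAF, ADSC, MEF2, MNF CiPS1, MAF CiPS3, CiPS45 or CiPS WT1 was left out (adjusted p 0.0550 to 0.115, differences -1.18 to -0.83). Without set 2 the difference was -0.17 (adjusted p = 0.798), and with MEF as the only somatic samples -0.19 (adjusted p = 0.741).

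Ptgs2, the inducible cyclooxygenase that starts prostaglandin synthesis, was measured in sets 3, 4 and 5. In set 3 WT MEF read 189, CiPS WT1 1283, CiPS WT2 1426 and ESC3 79.8. In set 4 MEF2 read 493, SKM-FSK1 12.7, SKM-FSK2 15.9 and ESC4 61.5. In set 5 MEF3 read 234, days 12, 20 and 32 read 4325, 4785 and 7027, the CiPSC control line 201 and ESC5 50.6. Ptgs2 was thus high in the 3 treatment samples and in the 2 CiPSC lines of set 3. It was low in ESC and in both SKM-FSK lines. Summed fibroblast markers of the 2 CiPSC lines of set 3 were 10.3 and 12.2% of WT MEF, and summed smooth muscle markers 76.5 and 65.7%. The part of residual fibroblast or smooth muscle RNA in these 2 CiPSC lines was not tested.

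ESC had less Ptgs2 than somatic cells in all 3 sets (-2.15, SE 0.57, adjusted p = 0.0147), a call that was lost without ESC3, ESC4, MEF2 or MEF3 (adjusted p 0.0534 to 0.0926, differences -2.11 to -1.73). CiPSC did not differ from somatic cells by the threshold (1.35, SE 0.61, adjusted p = 0.109). CiPSC minus ESC was 3.51 (SE 0.61, adjusted p = 0.171), and it was called when ESC2 was left out (adjusted p = 0.0499), a sample of set 2 in which Ptgs2 was not measured.

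**Figure D3:**
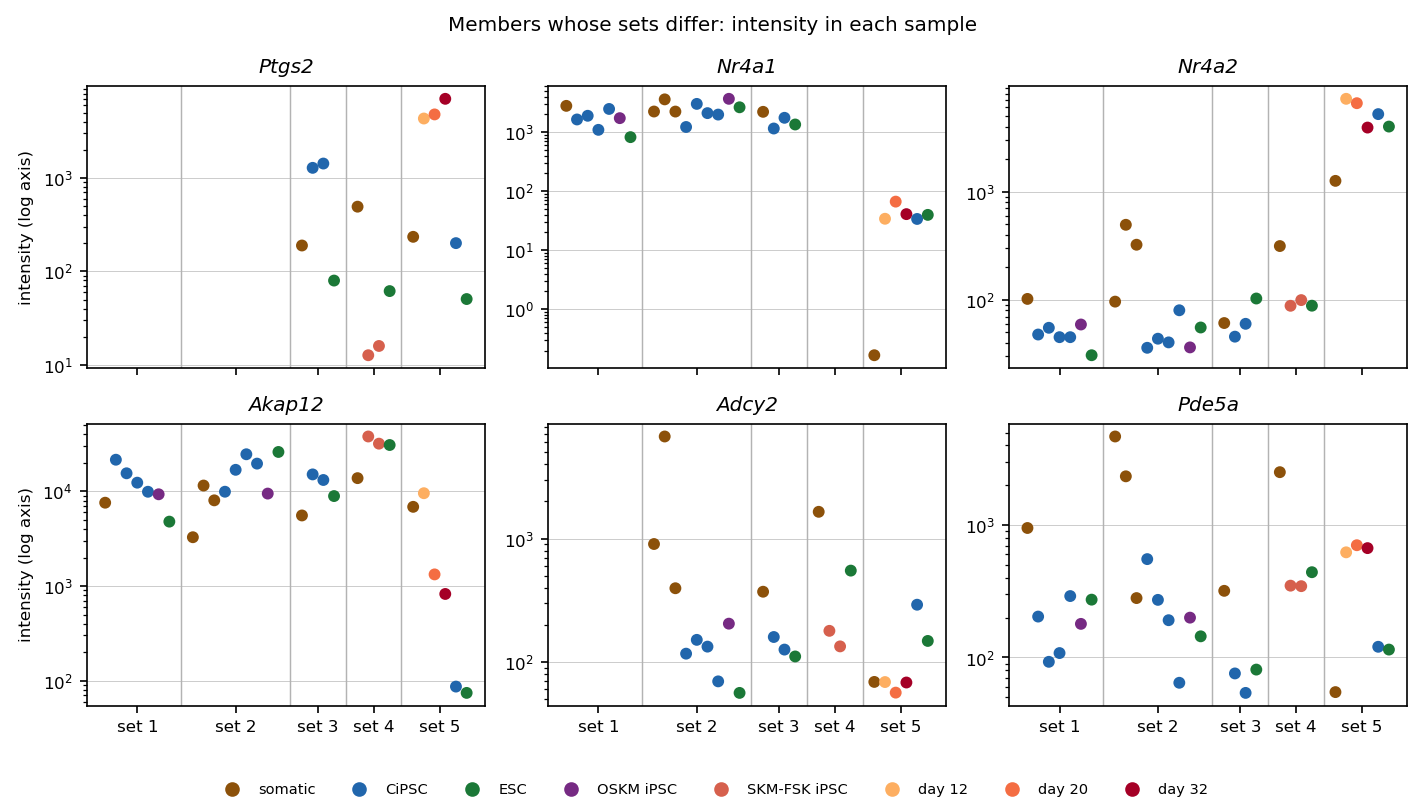
Intensity (log axis) of Ptgs2, Nr4a1, Nr4a2, Akap12, Adcy2 and Pde5a in each sample, ordered by set and coloured by group; each point is 1 column, and empty sets were not measured. Ptgs2 is highest on days 12 to 32 and lowest in the 2 SKM-FSK lines, and the other 5 genes place set 5 differently from sets 1 to 3.

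Of 18 phosphodiesterases tested, 3 were called lower in CiPSC and 0 higher (13.3% and 14.9% of all genes). The share called lower was near that of all genes. Pde1a, activated by calcium and calmodulin, was 174 to 1646 in the somatic samples of set 2 against 74.5 to 105 in CiPSC, and 102 in WT MEF against 46.6 and 35.4. The groups did not overlap in these sets or in set 5, where MEF3 read 87.5 and the CiPSC control line 64.1 (-2.08, SE 0.46, adjusted p = 0.0015). Without set 2 its adjusted p was 0.0717. Pde5a, specific for cGMP, was 952 in MEF1 against 92.8 to 291. It was 281 to 4676 in the somatic samples of set 2 against 64.4 to 554, which overlap, and 319 in WT MEF against 75.8 and 54.0. It was turned in set 5, with 54.8 in MEF3, 623, 705 and 670 on days 12, 20 and 32 and 120 in the CiPSC control line. A second probe was not turned there, at 73.9 in MEF3, 31.7, 34.0 and 34.2 on the 3 days and 29.4 in the CiPSC control line. The fitted difference was -2.20 (SE 0.54, adjusted p = 0.00241).

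Pde6h, a subunit of the cone photoreceptor enzyme, was lower, at -1.52 (SE 0.48, adjusted p = 0.0178), with 0.1 in the CiPSC control line against 161 in MEF3 and the opposite order in set 3 (64.5 and 59.6 against 31.4). It lost its call without ADSC (-1.16, adjusted p = 0.0534) or the CiPSC control line (-1.31, adjusted p = 0.0509). Without set 2 it was -0.87 (adjusted p = 0.380) and with MEF as the only somatic samples -1.05 (adjusted p = 0.175). Pde10a, which hydrolyses both cAMP and cGMP, was called only in ESC (-1.43, SE 0.39, adjusted p = 0.00861), with a CiPSC difference of -0.81 (SE 0.34, adjusted p = 0.0707). The cAMP-specific Pde4 family was not called: Pde4d differed by -0.78 (adjusted p = 0.0177, under 2-fold), Pde4a by -0.64, Pde4b by -0.47 and Pde4c by 0.17. A second probe for Pde4b read 2147 in MEF2 against 10.0 and 23.0 in the SKM-FSK lines and 2.75 in ESC4. The probe that stood for the gene read 423, 396, 443 and 501 in the same samples. The other 10 phosphodiesterases tested lay between -0.38 and 0.84.

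The lines made with transcription factors gave fewer calls on fewer samples. In OSKM iPSC, 1 of 32 members was called higher (12.2% of all genes) and 6 lower (10.2%). They were Akap17b and, lower, Adcy4, Akap13, Akap2, Creb3, Prkar1a and Prkar2b, with differences between -2.52 and -1.94. Without MEF3 the count was 2 higher and 9 lower of 32, and the shares of all genes were also larger, at 14.9% and 12.6%. Without OSKM iPS1 it was 0 higher and 4 lower of 50 (6.35% and 4.49% of all genes) and without OSKM iPS2 0 and 4 of 36 (4.45% and 5%), with 1 set allowed to hold both groups. Creb3 and Prkar1a were called with either line left out. In SKM-FSK iPSC, 1 of 54 was called higher (7.53% of all genes) and 9 lower (8.09%). Set 4 holds only 2 such lines and 1 fibroblast sample, MEF2, and the fit also draws on the other sets. Without either line fewer members, and a smaller share of all genes, were called in each direction. Without MEF2, when set 4 was tied to the other sets through ESC alone, 0 were called higher and 3 lower (1.73% and 2.18% of all genes): Akap13, Creb3 and Prkar1a. Adcy6, Akap13, Creb3 and Ptgs2 were called with either SKM-FSK1 or SKM-FSK2 left out. Without MEF2, Adcy6 was -3.07 (adjusted p = 0.076) and Ptgs2 -3.67 (adjusted p = 0.125).

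Adcy6 fell from 4214 in MEF2 to 213 and 170 in the SKM-FSK lines, with 313 in ESC4 (-3.92, SE 0.68, adjusted p = 0.000908). Ptgs2 was -4.52 (SE 0.76, adjusted p = 0.00319). Both SKM-FSK values of Ptgs2 were under the floor of 16, so its difference within set 4, -4.94, is a limit: it was at least that far below MEF2. Creb3 (5214 against 625 and 570), Akap13 (13439 against 2334 and 2344) and Prkar1a (11434 against 4714 and 4932) were also lower, and Akap17b was higher (786 against 2962 and 2811). Against ESC, 0 of 54 members were called in SKM-FSK iPSC (0% of all genes higher, 0.00615% lower). An unadjusted p under 0.05 was found for 3 members (5.56%), against 2.63% of all genes. The values nearest to a difference were Ptgs2 at -2.37 (SE 0.76) and Creb5 at 1.39 (SE 0.65), each with adjusted p = 1. Both these lines and the treated fibroblasts carry the F label, but Ptgs2 was below the MEF sample of the set in the lines and above it in the treated fibroblasts. The 2 sets were normalized apart and this difference was not tested.

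In the treated fibroblasts there was 1 sample per day and no test. Relative to MEF3, 19 of 65 members were at least 2-fold higher and 16 lower on day 12 (22.4% and 28.2% of all 21670 genes of set 5). On day 20 the counts were 20 and 19, where all genes gave 23.3% and 29.6%, and on day 32 they were 18 and 23, where all genes gave 26.1% and 32.3%. On at least 1 of the 3 days 48 of 65 members were past 2-fold, where all genes gave 66.6%. With day 12 in place of MEF3 as the reference, only 12 members were past 2-fold on day 20 or 32. By day 32, 4 were higher than on day 12 (8.88% of all genes) and 8 lower (9.88%). The step from MEF3 to day 12 thus held most of the change, and MEF3 had the lowest correlations with the other MEF samples. Marker sums of smooth muscle and macrophages fell with this step, and those of extraembryonic endoderm rose after day 12. Smooth muscle markers stood at 1.53, 1.49 and 10.8% of MEF3 on days 12, 20 and 32, macrophage markers at 11.8, 11.1 and 31.8%, and extraembryonic endoderm markers at 81.1, 212 and 350%. Their part in the members' differences was not tested.

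The day 12 sample was 18.5-fold above MEF3 in Ptgs2 and 5.53-fold above it in Adcy1, which read 71.0 in MEF3, then 392, 393 and 285, and 22 in the CiPSC control line. Pde6a, the catalytic subunit of the rod photoreceptor enzyme, read 13.7 in MEF3 and 2693, 2150 and 1050 on the 3 days, with 130 in the CiPSC control line and 928 in ESC5. MEF3 was under the floor there, so day 12 was at least 168-fold higher. In sets 2 and 4 Pde6a did not exceed 72.6 in any sample. Pde1a read 87.5 in MEF3 and 296, 452 and 303 on the 3 days, and 2 further probes for this gene read 108 and 95.5 in MEF3 against 572 and 419 on day 12. A second probe for Pde4d read 337 in MEF3 against 3026, 2158 and 1392, while the probe that stood for the gene read 3539 against 2433, 1998 and 2530.

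A further group was low in MEF3 and high in all 5 other samples of set 5: Akap1, Akap8, Akap8l, Akap11 and Pde6d, the prenyl-binding subunit. Pde6d read 128 in MEF3, 1455, 1124 and 1631 on the 3 days, 1394 in the CiPSC control line and 1822 in ESC5. Akap11 read 153 in MEF3 and 1053 to 1710 in the others. Akap4 and Akap14, anchors of the sperm tail and of cilia, read 1.08 and 3.17 in MEF3 and at least 142 in the others. In the opposite direction, Prkar2a read 4206 in MEF3 and 874 on day 12. Pde7a, Pde6c, Pde6g and Pde4b read 1308, 728, 1046 and 959 in MEF3 against 502, 234, 292 and 294 on day 12. A second probe for Pde4b disagreed, at 660 in MEF3 and 738, 597 and 594 on days 12, 20 and 32. Pde1c read 1.83 in MEF3 and 38.6, 54.1 and 69.3 on the 3 days. Of its 3 probes, another also rose, from 21.5 to 48.6, 94.8 and 118, while the last read 38.8 against 13.1, 15.8 and 16.3.

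**Figure D4:**
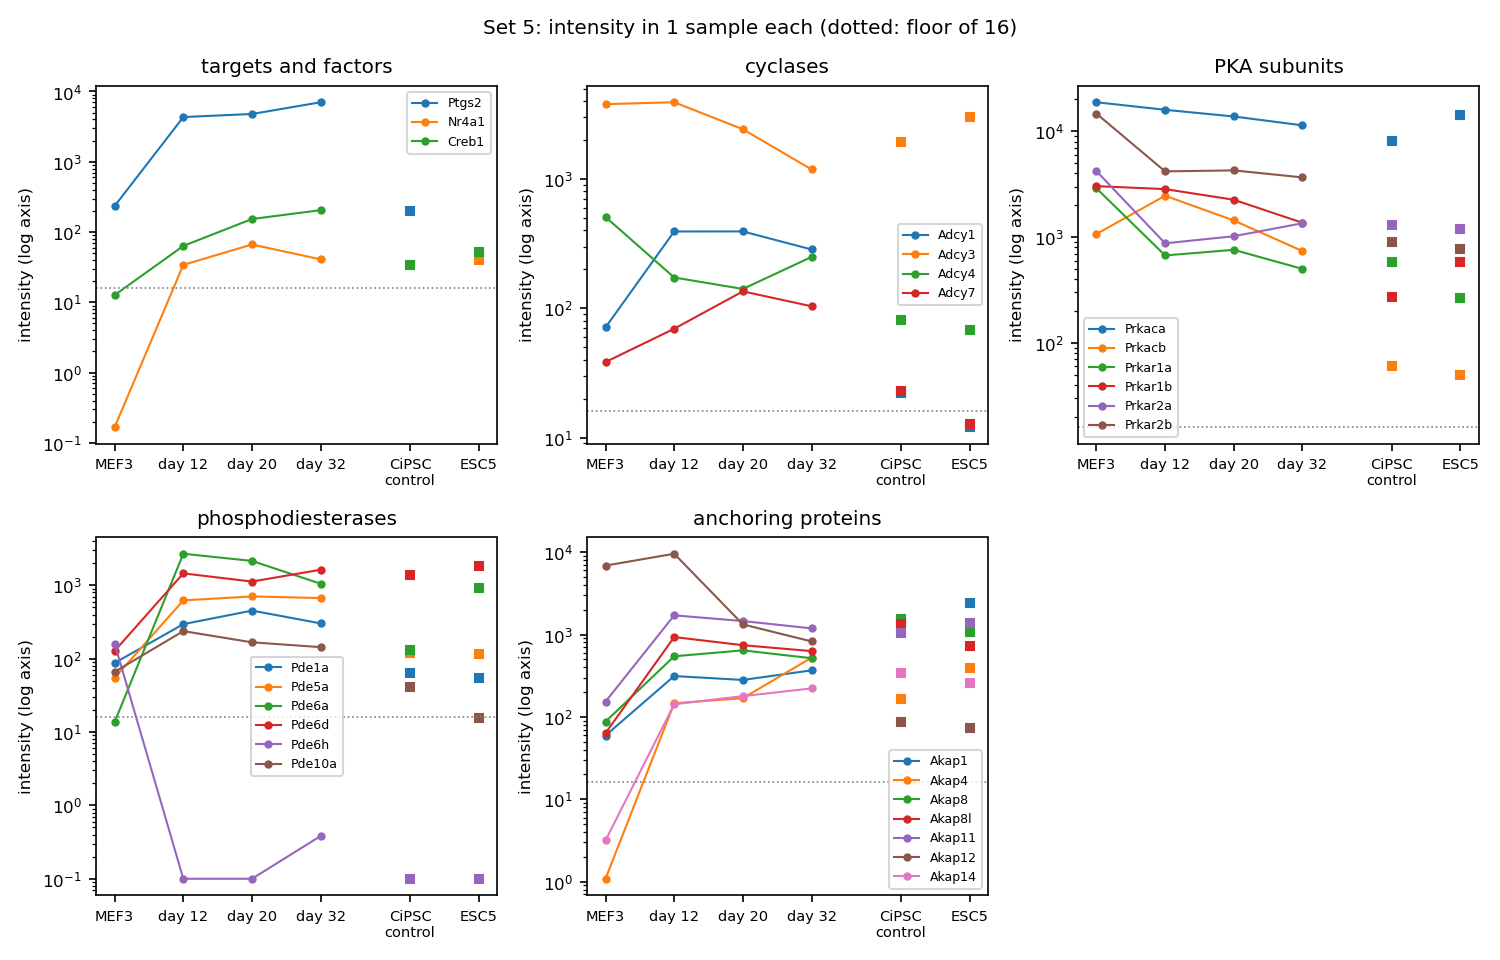
Intensity (log axis) in set 5 of members that changed most or belong to the PKA complex: MEF3 and days 12, 20 and 32 (joined by lines) and, as squares, the CiPSC control line and ESC5, 1 column each. The dotted line is the floor of 16. Ptgs2 and Adcy1 are high only on the treatment days, whereas Akap1, Akap8, Akap8l, Akap11 and Pde6d are low only in MEF3.

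A comparison that does not use MEF3 is that of the CiPSC control line with day 12, which share set 5 and all the letters of the day 12 code. In it, 9 of 65 members were at least 2-fold higher in the line (20% of all genes) and 20 lower (17.6%). Akap12 was 110.4-fold lower, Prkacb 40.7-fold, Ptgs2 21.6-fold, Pde6a 20.8-fold, Adcy1 17.8-fold and Prkar1b 10.5-fold lower. Akap2 was 7.45-fold, Creb5 6.15-fold, Pde10a 5.78-fold and Pde5a 5.17-fold lower. Akap1 (4.69-fold) and Adcy2 (4.23-fold) were the members more than 4-fold higher. Summed fibroblast markers were 265, 215 and 169% of MEF3 on days 12, 20 and 32 and 2.05% in the line. Their part in these differences was not tested.

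The rest of the pathway was read from 3 lists of genes outside the naming rule. For comparison, 14.9% of all genes were called higher and 13.3% lower in CiPSC than in somatic cells. Of 13 tested receptors and ligands that raise cAMP, 4 were called lower in CiPSC than in somatic cells and 0 higher: Pth1r (-2.63, SE 0.54, adjusted p = 0.00328) and Adcyap1r1 (-2.48, SE 0.40, adjusted p = 2.91e-05), receptors for parathyroid hormone and PACAP, Calcrl (-1.29) and Ptges (-1.93). Ptges makes prostaglandin E from the product of Ptgs2. Like Ptgs2 it was high during treatment, at 2495 in MEF3, 19683, 20005 and 9553 on days 12, 20 and 32, and 494 in the CiPSC control line. Of 20 G proteins and effectors tested, 3 were higher and 3 lower, near the shares of all genes. The largest were the CREB coactivator Crtc3 (-2.61, SE 0.30, adjusted p = 3.51e-07) and the PKA inhibitor Pkia (-2.41, SE 0.29, adjusted p = 6.95e-07), then Gnaz (1.56, SE 0.40, adjusted p = 0.00333) and Sik1 (1.47, SE 0.45, adjusted p = 0.0119).

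Of 22 further CREB-responsive genes tested, 8 were called lower in CiPSC and 0 higher, with a median of -0.83. Of all genes, 13.3% were called lower and 14.9% higher, with a median of -0.11. In ESC against the same somatic samples, 5 of the 22 were lower and 1 higher, with a median of -0.71. All genes there gave 14.4% lower and 15.3% higher, with a median of -0.09. Egr1 read 18286 in MEF1 against 99.5 to 144 in CiPSC, 10449 to 48472 in the somatic samples of set 2 against 106 to 1340, 10035 in WT MEF against 189 and 252, and 9252 in MEF3 against 3174, 3941 and 5554 on days 12, 20 and 32 and 113 in the CiPSC control line (-6.32, SE 0.54, adjusted p = 4.43e-09). Junb (-2.24, SE 0.38, adjusted p = 5.07e-05) and Fos (-1.75, SE 0.60, adjusted p = 0.029), also immediate early genes, were lower, although Fos in MAF CiPS3, at 2473, exceeded all 3 somatic samples of its set (584 to 1274). Penk, the enkephalin precursor, was lower in CiPSC (-1.96, SE 0.57, adjusted p = 0.0084) and read 685 in MEF3, then 4791, 10118 and 12965 on days 12, 20 and 32, and 141 in the CiPSC control line.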

How the data were processed

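The authors deposited intensity on a linear scale in 1 table of 26423 probes and 30 samples, normalized per set per the labels' design text. The sources used here name no scanner, background correction or software. Platform annotation gave 1 gene for 21876 probes and none for 4547, and 65 of 66 members matched RefSeq. Intensity was floored at 16 and converted to log2. Per gene, the probe measured in most samples, then the highest on average, was kept. Genes needed at least 3 samples above 16 and, per comparison, 2 sets holding both groups (1 for SKM-FSK iPSC) and 3 residual degrees of freedom. limma 3.58.1 in R 4.3.3 fitted group and set to all 30 samples, and p-values were adjusted over all genes tested. Fold changes and their SE come from this fit, which was tested on simulated data. Because it uses all groups to estimate the sets, a fitted difference can depart from that within a set. Tables and figures used pandas 2.3.3 and matplotlib 3.10.9.

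The members and lists were chosen with earlier results of these data known, so no list count is independent support. Described in full are members called in any of 6 comparisons or past 4-fold from MEF3 on a treatment day, and the cyclases, PKA subunits, Creb1, Crem and the 4 targets. Of each list up to 4 called genes with the largest change are named, and other probes of a gene where they disagree were chosen after their values were seen. Replicate numbers are names in accession order and pair nothing. The line titled ADSC CiPS2 has adult lung fibroblasts as its source label. Alternatives covered the floor, filter, normalization, probe choice, terms, samples and sets.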

Additional observations from a re-analysis of the deposited data

Results flagged for a closer look

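For 4 members every CiPSC line of sets 1 to 3 lay on one side of the somatic mean of its set and the CiPSC control line of set 5 on the other side of MEF3. These differences between sets were not tested. Adcy2 was 2.08 higher on the log2 scale in set 5, against -4.26 to -1.22 for the lines of the other sets that measured it. Akap12 was -6.31 in set 5 against 0.38 to 1.88. Nr4a2 was 2.05 in set 5 against -2.79 to -0.02, and Pde5a was 1.14 against -4.50 to -1.39. CiPS WT2 lay next to WT MEF for Nr4a2, and in set 2 single CiPSC lines overlapped single somatic samples for Akap12 and Pde5a. Second probes did not turn in set 5: that of Nr4a2 gave -2.24 and that of Pde5a -1.33, with -1.30 in set 2. All 4 rest on MEF3 and on 1 CiPSC column. Among 35 groups of 4 CiPSC lines that spanned at least 2-fold, 0 held a line standing apart by Dixon's criterion.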

How the results depend on the processing

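Calls were repeated under 37 alternatives for CiPSC minus somatic, 32 for ESC, 25 for OSKM iPSC and 27 for SKM-FSK iPSC. In every alternative that gave a value 7 of 21, 12 of 23, 1 of 7 and 0 of 10 members kept their call. Of 21 members called for CiPSC minus somatic, 13 were called without set 2. All genes gave 14.7% higher and 12.8% lower there, against 14.9% and 13.3% with all sets. For ESC minus somatic 23 became 15 with no set term and 13 with only the 2 groups compared. The shares of all genes fell as well, from 15.3% higher and 14.4% lower to 8.74% and 9.06%, and to 11.1% and 9.57%. OSKM iPSC minus somatic went from 7 to 2 with only those groups and to 11 without set 5. All genes there went from 12.2% higher and 10.2% lower to 5.71% and 4.72%, and to 14.8% and 12.4%. SKM-FSK iPSC minus somatic went from 10 to 3 with only those groups, and all genes from 7.53% and 8.09% to 4.51% in each direction. CiPSC minus ESC went from 0 to 1 with R1 as the only ESC line. All genes went from 0.0303% higher and 0% lower to 0.208% and 0.227%. Leaving out 1 sample at a time gave 17 to 21 calls for CiPSC minus somatic, 17 to 23 for ESC, 0 to 1 for CiPSC minus ESC, 4 to 11 for OSKM iPSC and 3 to 15 for SKM-FSK iPSC, and 0 throughout for SKM-FSK iPSC minus ESC (ESC4 was not left out). Leaving out either OSKM iPSC line, MEF1 (9 calls for OSKM iPSC) or, for SKM-FSK iPSC minus somatic, MEF2 needed fewer sets holding both groups, a choice made after seeing the data. Shares of all genes for SKM-FSK iPSC minus somatic went from 1.73% higher and 2.18% lower without MEF2 to 11.6% and 11.3% without MEF3. With the replicate block, whose numbers pair no samples, 6 of 32 members were called for CiPSC minus somatic, 11 of 32 for ESC, 6 for OSKM iPSC and 0 of 31 for SKM-FSK iPSC. All genes gave 10.2% higher and 8.16% lower for CiPSC and 13.8% and 14% for ESC. They gave 9.54% and 8.65% for OSKM iPSC and 0.867% and 1.43% for SKM-FSK iPSC. Adcy2 was 0.0030 (adjusted p = 0.997) for CiPSC with MEF as the only somatic samples. The 48 members past 2-fold from MEF3 became 12 with day 12 as the reference. The causes were not tested. Values under 16, frequent in set 5 only, have no order.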
